A study of Mus musculus with 672 samples.

Results

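The genes described here are 10 immediate early genes of the mouse, Fos, Fosb, Fosl2, Atf3, Egr1, Egr2, Nr4a1, Ier2, Btg2 and Dusp1, of 46078 genes counted in single cells of the embryonic pancreas. They were selected on their measured difference between the 2 ages of the study, so that difference is given as values and not tested. Each gene was followed in single cells, in 4 cell groups set by a marker gene, and in whole plates. All 10 passed the filter on low counts in every fit.

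Immediate early genes are transcribed within minutes of a signal, because the factors that act on their promoters are already present in the cell. Growth factor signalling through the ERK kinases acts on SRF and its ternary complex partners at CArG boxes, and calcium, cyclic AMP and stress kinases act on CREB and ATF factors at cyclic AMP response elements. Many of the products are transcription factors, others end the response, and both the RNAs and the proteins are short-lived.

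The study sorted single pancreatic cells of C57BL/6 embryos after antibody staining, 1 per well, and sequenced full-length cDNA. Age E13.25 (days of embryonic development) is represented by 4 plates of 96 wells, labelled pancreas 1 to 4 and called plates 1 to 4 here. Age E15.25 is represented by 3 plates, called tip 1, tip 2 and trunk 2, where the number is that of the pancreatic bud. No allele or treatment is given for any group, and the antibodies and gates are not given. Titles of plate 4 carry a further mouse number, and tip 2 and trunk 2 share a bud number, so the plates may not be independent animals. The spread that a p-value is set against here is that of the plates, and it may be technical. The series names the lineage potential and fate of pancreatic precursors as its subject, and the labels give no purpose for the contrast of tip and trunk.

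Of 672 wells, 601 cells were kept, and the median cell of a plate held between 773545 reads on genes (trunk 2) and 1526820 (plate 2). Mitochondrial genes took 3.43% to 4.23% of the reads of a plate's median cell at E13.25 and 5.12% to 5.77% at E15.25. Between 27.7% and 32.5% of reads were not aligned in plates 1 to 3, against 47.2% in plate 4 and 45.3% to 50.1% at E15.25. Plate 4 lay among the E15.25 plates in this share, so values against plate 4 alone are given too. The part of these measures in differences between ages was not tested.

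A cell was assigned to the marker with the highest ratio to its threshold: Cpa1 (a pancreatic carboxypeptidase of tip and acinar cells) or Spp1 (osteopontin, of trunk and duct cells) at 1000 CPM (reads of a gene, scaled to a fixed total of reads on genes per cell or sum), Neurod1 (an endocrine transcription factor) at 100 CPM, or Col3a1 (a fibrillar collagen of mesenchyme) at 300 CPM. This gave 137 Cpa1, 137 Spp1, 42 Neurod1 and 235 Col3a1 cells, with 50 ungrouped, of which 32 held over 20% haemoglobin reads. Of the 601 kept cells, 62 reached 2 or more thresholds: 27 Cpa1, 20 Spp1, 4 Neurod1 and 11 Col3a1 cells. At E13.25 these were 11 of 41 Cpa1 and 12 of 84 Spp1 cells. Marker genes of each class were then summed per group. For the 4 groups the list includes the grouping gene itself, so a high sum there is partly fixed by the grouping. The summed level of 10 acinar or tip genes, Cpa1 among them, was 22239 to 33922 CPM in Cpa1 cells of E13.25. It was 77538 to 87328 CPM at E15.25, and at most 2464 CPM in any sum of the other groups. Endothelial markers summed to at most 23.9 CPM and leukocyte markers to at most 23.6 CPM in any group, with Tyrobp and C1qb at 0 in Col3a1 cells of both ages. The Spp1 group held 34 cells with 100 CPM or more of Neurog3, the endocrine progenitor factor, the Col3a1 group held mesothelial markers (up to 870.4 CPM summed), and its cells of trunk 2 held endocrine markers. Reads were summed per plate and group with at least 5 cells, which leaves out Cpa1 and Neurod1 cells of plate 2 and Neurod1 cells of tip 1. Fewer cells that respond and less RNA per responding cell cannot be told apart in such sums, so values per cell follow.

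The sequences before the start sites show what the members share outside the measured values. RefSeq promoter windows on GRCm38.p6 were matched for 8 of the 10 genes (all but Egr1 and Ier2). The 250 bases before each start were searched on both strands, except for the TATA box, which was searched on the strand of the gene only. The half-site of the cyclic AMP response element, TGACG, lay in the window of 7 of the 8 genes, all but Fosl2, while 19.8% of 27025 genes held it. The whole element TGACGTCA lay in 2 of the 8, Btg2 and Dusp1, against 1.77% of genes. A CArG box lay in the Egr2 window, against 1.62% of genes. The AP-1 site TGANTCA lay in 0 of the 8, against 7.82% of genes, and the TATA box TATAAA in Fos, against 8.94% of genes. A gene with several windows was counted where any of them held the letters. The whole element contains the half-site on each strand, so the 2 counts overlap. Fos, Nr4a1, Btg2, Dusp1 and Egr2 are shown, chosen after the search because they hold the most half-sites, the whole elements or the CArG box, with half-sites and CArG boxes in capitals. The windows are Fos (chr12:85473640-85473889, plus strand), Nr4a1 (chr15:101266596-101266845, plus strand), Btg2 (chr1:134079156-134079405, minus strand), Dusp1 (chr17:26508473-26508722, minus strand) and the third of 5 Egr2 starts (chr10:67537619-67537868, plus strand).
Fos: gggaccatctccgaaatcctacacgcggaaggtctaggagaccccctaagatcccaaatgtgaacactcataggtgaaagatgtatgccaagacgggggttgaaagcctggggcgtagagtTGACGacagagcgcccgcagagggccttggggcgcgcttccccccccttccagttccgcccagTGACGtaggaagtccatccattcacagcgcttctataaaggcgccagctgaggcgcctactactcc
Nr4a1: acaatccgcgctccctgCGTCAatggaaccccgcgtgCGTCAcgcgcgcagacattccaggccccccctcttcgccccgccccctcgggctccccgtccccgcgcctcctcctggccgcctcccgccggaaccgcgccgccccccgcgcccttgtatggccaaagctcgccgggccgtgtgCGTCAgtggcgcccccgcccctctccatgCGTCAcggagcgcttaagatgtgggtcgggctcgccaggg
Btg2: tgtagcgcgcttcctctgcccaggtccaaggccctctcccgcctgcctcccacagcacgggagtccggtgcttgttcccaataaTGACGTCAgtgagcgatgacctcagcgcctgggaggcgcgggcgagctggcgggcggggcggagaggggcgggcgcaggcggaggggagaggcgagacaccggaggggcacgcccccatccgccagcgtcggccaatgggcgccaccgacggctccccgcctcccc
Dusp1: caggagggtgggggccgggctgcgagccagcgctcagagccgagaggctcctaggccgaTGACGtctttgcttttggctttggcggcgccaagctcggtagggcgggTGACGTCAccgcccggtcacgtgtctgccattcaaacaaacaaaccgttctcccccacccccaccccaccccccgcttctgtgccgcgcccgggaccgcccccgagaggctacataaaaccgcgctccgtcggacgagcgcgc
Egr2: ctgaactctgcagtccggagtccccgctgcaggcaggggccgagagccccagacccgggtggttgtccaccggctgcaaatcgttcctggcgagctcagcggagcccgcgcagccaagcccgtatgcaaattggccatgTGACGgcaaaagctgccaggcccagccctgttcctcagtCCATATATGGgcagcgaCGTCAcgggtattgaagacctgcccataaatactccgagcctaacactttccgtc
Nr4a1 held 4 half-sites, beginning 233, 213, 69 and 40 bases before the start, and 44 of the 27025 genes held 4 or more. In Fos the half-sites began 129 and 66 bases before the start, with the TATA box at 33. The whole element began 166 bases before the start in Btg2 and 143 in Dusp1. In Egr2 the CArG box, at 72, lay between half-sites at 111 and 55. These letters are matches in a window and no binding was measured in this study.

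Among the AP-1 genes, whose products pair with JUN proteins, Fos (chr12:85473890-85477273, plus strand, GRCm38) was the most abundant member per kilobase of exon in every cell group of E13.25 except the Cpa1 and Neurod1 cells. In Cpa1 cells it measured 148 CPM per kilobase at E13.25, below Ier2 at 278, and in Neurod1 cells 392, beside Btg2 at 397. At E15.25 Fos was first per kilobase in all 4 groups. In Cpa1 cells Fos measured 208, 419 and 420.5 CPM on plates 1, 3 and 4 of E13.25, and 3185, 1889 and 4077 CPM on tip 1, tip 2 and trunk 2. Every E15.25 plate lay above every E13.25 plate, and the ratio of means was 8.74. On plate 1, 1 of the 8 Cpa1 cells supplied 71.9% of the Fos reads. In Spp1 cells Fos measured 1418, 957, 796 and 1814 CPM on plates 1 to 4 and 1873, 1402 and 5888 CPM on the E15.25 plates, and the ages overlapped. In Col3a1 cells it measured 1176, 1127, 667 and 1414 CPM at E13.25 and 673, 1516 and 1245 CPM at E15.25, again with overlap. Neurod1 cells held 1035, 635 and 1099.5 CPM on plates 1, 3 and 4, and 5466 and 1323 CPM on tip 2 and trunk 2.

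Fosb (chr7:19302696-19310051, minus strand), a second FOS protein, was highest in Col3a1 cells of E13.25. It measured 445, 399, 218 and 649.9 CPM there on plates 1 to 4, and 124, 164 and 188 CPM in Col3a1 cells of tip 1, tip 2 and trunk 2. This was the single member with every E15.25 plate below every E13.25 plate in a group. In Cpa1 cells Fosb went from 20.3, 4.92 and 58.9 CPM on plates 1, 3 and 4 to 255, 131 and 405 CPM on the E15.25 plates, without overlap. Fosl2 (chr5:32135801-32157842, plus strand), a later-peaking FOS relative, measured 191 ± 34.9 CPM (SD, n = 4) in Col3a1 cells of E13.25 and 31.9 ± 27.4 CPM (SD, n = 3) in Cpa1 cells. In these Cpa1 cells 1 cell supplied 93.3%, 69.6% and 87.2% of the Fosl2 reads on plates 1, 3 and 4. In Cpa1 cells of E15.25 Fosl2 measured 108 ± 22.7 CPM (SD, n = 3).

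Atf3 (chr1:191170296-191218039, minus strand), a stress-responsive repressor of the ATF family, had the widest range of the 10 genes. In Cpa1 cells it measured 0.574, 0.34 and 22.3 CPM on plates 1, 3 and 4, and 743, 504 and 492 CPM on tip 1, tip 2 and trunk 2. At E13.25 these are near absence on plates 1 and 3, and 1 cell supplied 70.5% of the Atf3 reads of plate 4. In Neurod1 cells Atf3 measured 0.749, 15.4 and 1.24 CPM on plates 1, 3 and 4 and 103 and 383 CPM on tip 2 and trunk 2. In Spp1 cells of E13.25 the plates themselves spread from 4.73 CPM on plate 2 to 776 CPM on plate 4, so the E15.25 values of 645, 454 and 1659 CPM overlapped them.

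The zinc finger factors Egr1 (chr18:34859823-34864984, plus strand) and Egr2 (chr10:67535475-67542188, plus strand), which bind GC-rich sites, are known targets of ERK signalling. Egr1 measured 203, 254 and 222 CPM in Cpa1 cells of plates 1, 3 and 4, and 1389, 919 and 1869 CPM at E15.25. Egr2 measured 31.3, 2.99 and 4.31 CPM and then 360.3, 266 and 529 CPM in the same cells. Neither gene overlapped between the ages in Cpa1 cells. In Col3a1 cells Egr1 measured 1062, 976, 562 and 1012 CPM on plates 1 to 4 and 469, 865 and 663 CPM at E15.25, and the ages overlapped. Nr4a1 (chr15:101254269-101274795, plus strand), an orphan nuclear receptor, measured 90.5, 115 and 58.5 CPM in Cpa1 cells of E13.25 and 351, 95.5 and 763 CPM at E15.25. It was the 1 member whose ages overlapped there, because tip 2 lay within the E13.25 range.

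Ier2 (chr8:84661331-84662852, minus strand) encodes a nuclear protein. It measured 428, 374 and 468 CPM in Cpa1 cells of E13.25 and 1299, 750.3 and 1495 CPM at E15.25. Btg2 (chr1:134075170-134079120, minus strand), an antiproliferative cofactor of mRNA deadenylation and a p53 target, went from 312, 133 and 208 CPM to 2535, 1838 and 2913 CPM in Cpa1 cells. In Neurod1 cells Btg2 was already at 595, 1094 and 1581 CPM on plates 1, 3 and 4. Dusp1 (chr17:26505590-26562128, minus strand), a phosphatase that ends MAP kinase signalling, was low in Cpa1 cells, at 15.6, 12.5 and 11.3 CPM and then 28, 108 and 132 CPM. On plates 1, 3 and 4, 1 cell supplied 95.6%, 57.6% and 56.3% of the Dusp1 reads of the Cpa1 cells. In Col3a1 cells Dusp1 measured 226 ± 104 CPM (SD, n = 4) at E13.25 and 367 ± 129 CPM (SD, n = 3) at E15.25. Exons of Dusp1 overlap Ergic1 on the opposite strand, and without a stated strand setting their reads cannot be told apart.

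**Figure D1:**
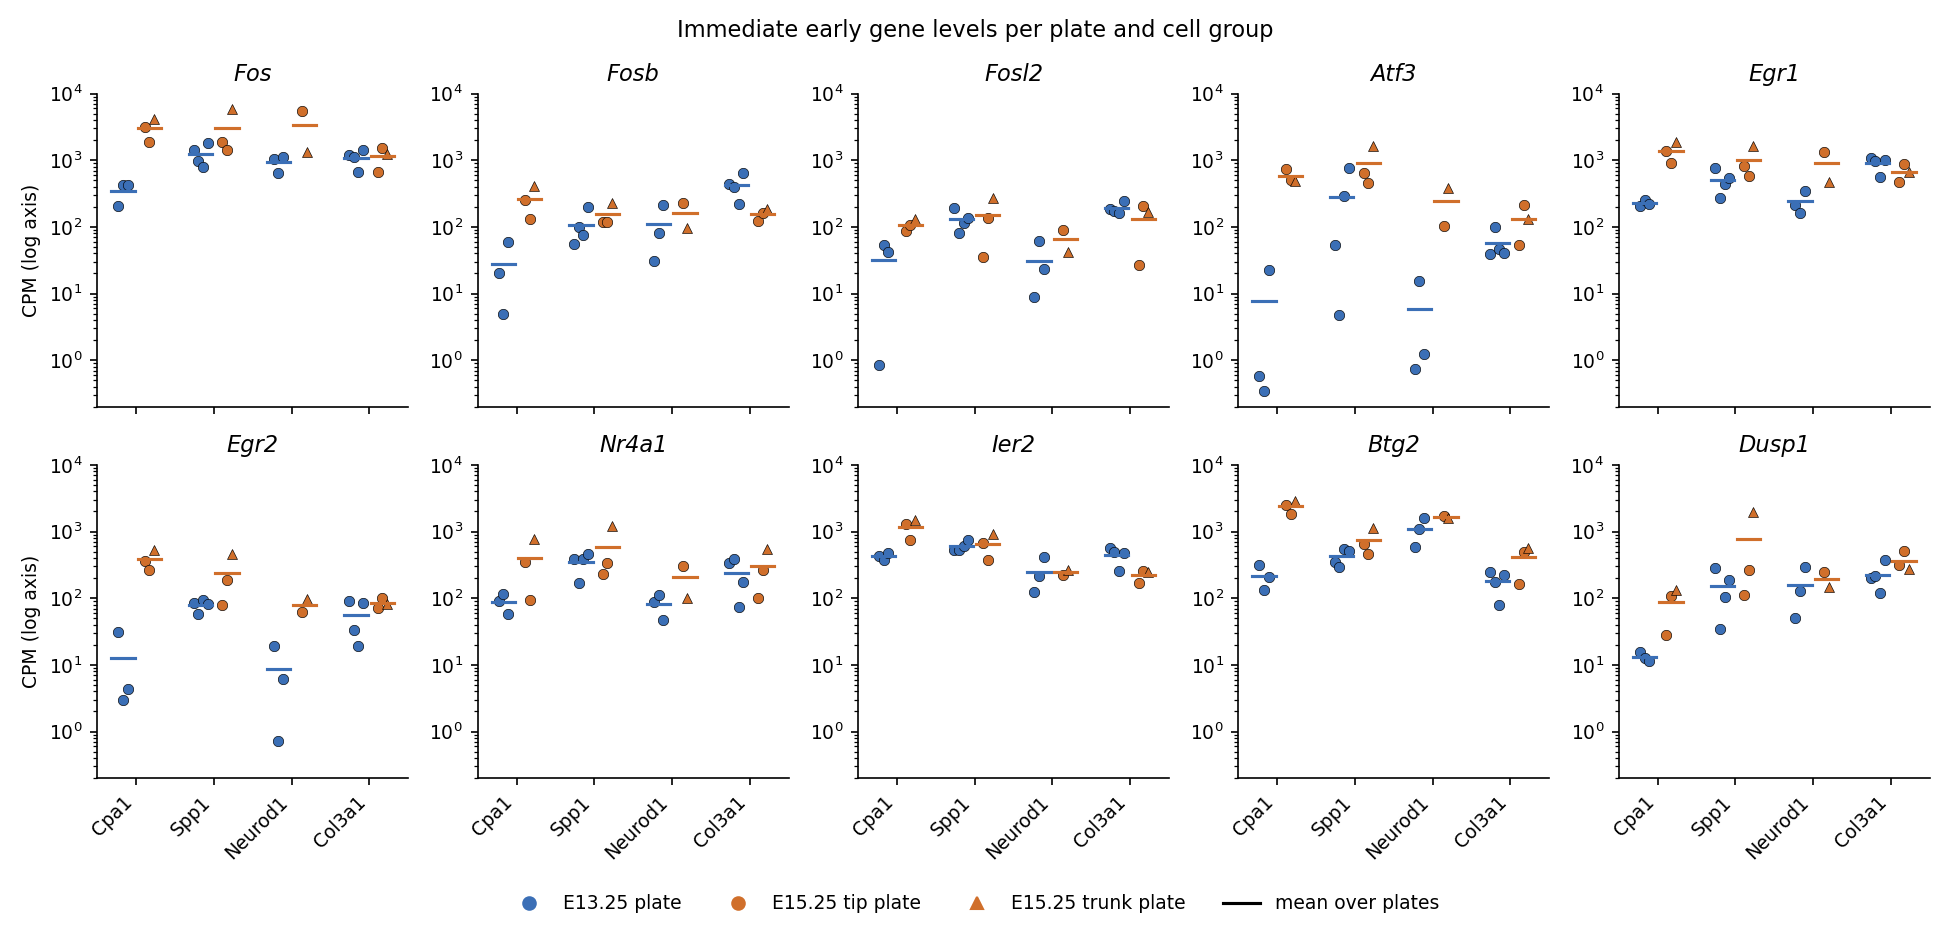
Level of each gene in CPM (log axis) by cell group, with each plate as a point (circle, E13.25 or E15.25 tip; triangle, E15.25 trunk) and the mean over plates as a line. In Cpa1 cells the E15.25 plates lie above the E13.25 plates for 9 of the 10 genes, all but Nr4a1.

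Every E15.25 plate lay above every E13.25 plate for 9 members in Cpa1 cells, 5 in Neurod1 cells (2 plates of E15.25) and 0 in Spp1 and Col3a1 cells. The same held for 6.02%, 9.86%, 2.49% and 5.26% of the genes at 10 CPM or more in those groups. In whole plates it held for 4 members and 3.88% of genes. In Col3a1 cells 1 member, Fosb, lay below throughout, beside 17% of genes. The median ratio of E15.25 to E13.25 over the 10 genes was 7.76 in Cpa1, 2.29 in Neurod1, 1.85 in Spp1 and 1.15 in Col3a1 cells. Against plate 4 alone, every E15.25 plate was higher for 10 members in Cpa1 cells, 7 in Neurod1, 1 in Spp1 and 1 in Col3a1 cells. These counts describe the contrast the genes were listed from. Mitochondrial share moved in the same direction as the Cpa1 levels, with plate medians in Cpa1 cells of 2.88%, 3.94% and 4.87% on plates 1, 3 and 4 and of 6.46%, 7.71% and 7.57% at E15.25, and its part was not tested.

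The cell groups of one plate share age, sort and library preparation. The genes were selected on the difference between ages, not directly on that between groups. The 2 are not independent, because the mix of groups changed with age. Cpa1 cells were 41 of 340 kept cells at E13.25 and 96 of 261 at E15.25, and Col3a1 cells 161 and 74. The part of this selection in the group contrasts was not tested. The groups were compared with edgeR's quasi-likelihood F test on the summed counts, with the plate as a term. All genes were in the fit, with Benjamini-Hochberg adjustment. Epithelial here means the average of Cpa1 and Spp1 cells.

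At E13.25 the mesenchymal Col3a1 cells exceeded the epithelium in 3 of the 10 members, where 12.8% of all genes passed and 8.58% passed and were higher. Fosb was higher (log2 fold change 3.26 ± 0.42 SE, adjusted p = 5.6e-05), as were Dusp1 (log2 fold change 2.54 ± 0.59 SE, adjusted p = 0.0082) and Egr1 (log2 fold change 1.49 ± 0.34 SE, adjusted p = 0.0067). Fosb measured 428 ± 177 CPM (SD, n = 4) in Col3a1 cells, 28 ± 27.8 CPM (SD, n = 3) in Cpa1 cells and 106 ± 62.1 CPM (SD, n = 4) in Spp1 cells. Dusp1 measured 151 ± 106 CPM (SD, n = 4) in Spp1 cells and 15.6, 12.5 and 11.3 CPM in the Cpa1 cells of 3 plates, and Egr1 505 ± 205 CPM (SD, n = 4) and 226 ± 25.5 CPM (SD, n = 3). The Col3a1 plates lay above all Cpa1 plates for Fosb, Dusp1 and Egr1, and overlapped the Spp1 plates for Dusp1 and Egr1. The other 7 members did not pass, with estimates from -0.68 for Btg2 to 1.98 for Atf3. The median over the 10 was 1.24, beside 0.21 over all genes. The Egr1 call was lost without plate 1 (adjusted p = 0.061) and the Dusp1 call without plate 4 (adjusted p = 0.068).

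At E15.25 the same contrast had called members on the other side. Ier2 was lower in Col3a1 cells than in the epithelium (log2 fold change -2.14 ± 0.33 SE, adjusted p = 0.00042), and so were Btg2 (log2 fold change -2.02 ± 0.42 SE, adjusted p = 0.0048) and Fos (log2 fold change -1.64 ± 0.49 SE, adjusted p = 0.044). That is 3 of 10, beside 9.41% of all genes passing and 2.88% passing and lower. Ier2 measured 170, 254 and 245 CPM in Col3a1 cells of tip 1, tip 2 and trunk 2, against 1299, 750.3 and 1495 CPM in their Cpa1 cells, and 670.2, 375 and 932 CPM in their Spp1 cells, and Col3a1 cells overlapped neither. For Fos and Btg2 the Col3a1 plates lay below all Cpa1 plates and overlapped the Spp1 plates. The median over the 10 members was -1.35, beside -0.01 over all genes, and 9 of 10 estimates were below 0, as were 51.6% of all genes. Dusp1 was the exception, at 0.92 with adjusted p = 0.46. The Fos call was lost without any 1 of 6 plates, all but tip 2, with adjusted p from 0.0501 (without plate 2) to 0.24 (without tip 1). The Btg2 call was lost without tip 1 (adjusted p = 0.078) or trunk 2 (adjusted p = 0.052), so the count fell to 1 without either plate. Endocrine markers in the Col3a1 cells of trunk 2 summed to 16242 CPM, and with only cells over 1 threshold the count of called members was also 3. The change of this contrast between ages was not tested.

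Within the epithelium, the estimates for tip-type Cpa1 cells against trunk-type Spp1 cells were below 0 for all 10 genes at E13.25, and 1 passed the threshold, Egr2 (log2 fold change -3.68 ± 0.76 SE, adjusted p = 0.037). In all, 0.537% of genes passed. Egr2 measured 31.3, 2.99 and 4.31 CPM in Cpa1 cells of plates 1, 3 and 4 and 83.5, 58.6, 93.5 and 81.3 CPM in Spp1 cells of plates 1 to 4, without overlap. Dusp1 was at -3.43 (adjusted p = 0.066) and Atf3 at -5.60 (adjusted p = 0.14). Unadjusted p was under 0.05 for 9 of the 10, and the share of all genes below that p is not given here. The median estimate was -2.05, beside -0.17 over all genes, of which 56.4% were below 0. The 10 genes vary together over cells, as described below, so their estimates are not independent. All 10 estimates stayed below 0 under every alternative run. The Egr2 call was lost in 11 of 21 alternatives. Among them were leaving out plate 1 (adjusted p = 0.0503), plate 3 (0.27), plate 4 (0.22), tip 2 (0.097) or trunk 2 (0.092). Leaving out plate 2, with no Cpa1 sum of its own, raised the count of called members from 1 to 2.

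At E15.25, 7 of the 10 estimates of Cpa1 against Spp1 cells were above 0, where 48.7% of all genes were below 0. Whether this differs from E13.25 was not tested. Btg2 was higher in Cpa1 than in Spp1 cells (log2 fold change 1.98 ± 0.45 SE, adjusted p = 0.033), the 1 member called where 1.73% of genes passed. It measured 2535, 1838 and 2913 CPM in Cpa1 cells of tip 1, tip 2 and trunk 2 and 640.5, 462 and 1111 CPM in their Spp1 cells, without overlap. The Dusp1 estimate was on the other side, at -2.62 (adjusted p = 0.12). The median estimate was 0.54, beside 0.04 over all genes, and between 2 and 5 of the 10 estimates were below 0 over the alternatives. The median was 0.09 without tip 1, 0.31 without TMM factors and 0.26 without the 5% of cells richest in genes. The Btg2 call was lost without plate 4 (adjusted p = 0.061), tip 1 (0.23), tip 2 (0.14) or trunk 2 (0.2).

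Endocrine Neurod1 cells lay on both sides of the epithelium at E13.25, with 6 of 10 estimates below 0, as were 56% of all genes. The median estimate was -0.83, beside -0.24 over all genes. At E13.25 Btg2 was higher (log2 fold change 1.80 ± 0.35 SE, adjusted p = 0.003), while Egr2 (log2 fold change -2.45 ± 0.68 SE, adjusted p = 0.027) and Ier2 (log2 fold change -1.10 ± 0.31 SE, adjusted p = 0.028) were lower, 3 of 10 where 11.2% of all genes passed. At E15.25 all 10 estimates were below 0, as were 59.5% of all genes, with a median of -1.13, beside -0.46 over all genes. Ier2 passed there as lower (log2 fold change -2.12 ± 0.40 SE, adjusted p = 0.0043), 1 of 10 where 7.7% of genes passed. Ier2 measured 219 and 269 CPM in Neurod1 cells of tip 2 and trunk 2, and 1299, 750.3 and 1495 CPM in Cpa1 cells of tip 1, tip 2 and trunk 2. Egr2 at E13.25 measured 19, 0.719 and 6.09 CPM in Neurod1 cells of plates 1, 3 and 4, overlapping the 31.3, 2.99 and 4.31 CPM of their Cpa1 cells, and lay below all Spp1 plates. Ier2 at E13.25 likewise overlapped Cpa1 cells and lay below all Spp1 plates. The Neurod1 sums rest on 5 to 12 cells a plate. At E13.25 the Btg2 call was lost without plate 4 (adjusted p = 0.056), the Egr2 call without plate 3 (0.16), plate 4 (0.08), tip 2 (0.052) or trunk 2 (0.051), and the Ier2 call without plate 1 (0.18), plate 3 (0.12) or trunk 2 (0.053). The count was then 1 without plate 3, plate 4 or trunk 2. At E15.25 the count was 2 without plate 1, and the Ier2 call was lost without tip 2 (adjusted p = 0.051) or trunk 2 (0.088), and without trunk 2 the number of members below 0 went from 10 to 5. Without TMM factors it was 8.

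**Figure D2:**
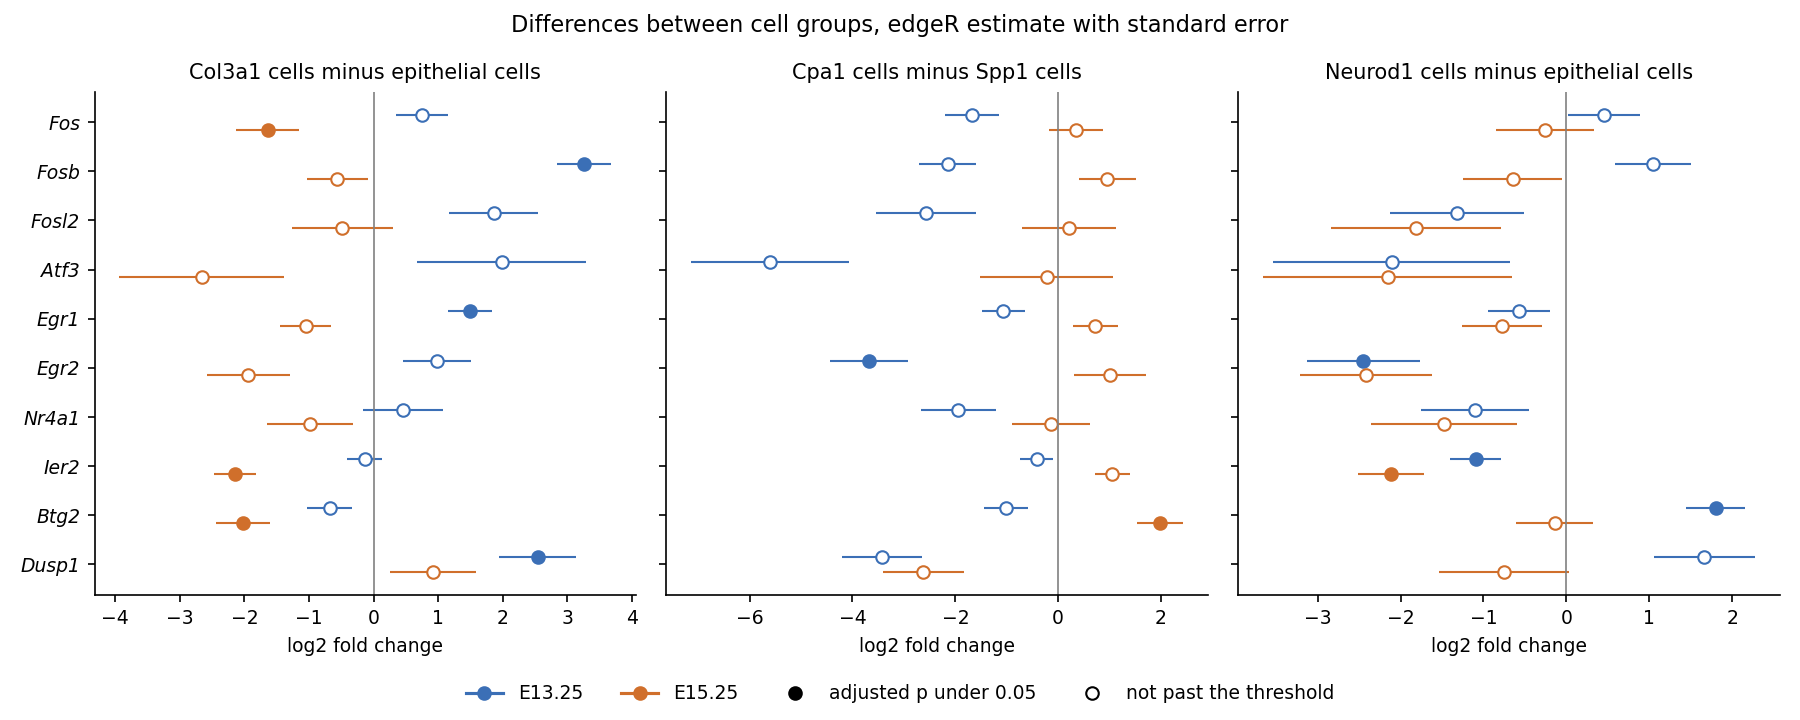
Log2 fold change between cell groups for each gene at E13.25 (blue) and E15.25 (orange), as the edgeR estimate with its standard error, with filled points for an adjusted p under 0.05. For Col3a1 cells against epithelial cells, 8 of 10 estimates are above 0 at E13.25 and 1 of 10 at E15.25, and for Cpa1 against Spp1 cells 0 and 7.

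Single cells show how many of the genes were raised together. A gene was counted in a cell at 100 CPM or more. Cpa1 cells of E13.25 held 3.05 ± 0.37 of the 10 genes (SD, n = 3 plates) and Cpa1 cells of E15.25 held 6.78 ± 0.70 (SD, n = 3 plates). The share of Cpa1 cells with 5 or more of the genes was 12.5%, 6.25% and 30.8% on plates 1, 3 and 4, and 84.6%, 75% and 86.2% on tip 1, tip 2 and trunk 2. With every cell thinned to 100000 reads these shares averaged 16% and 83.1%, beside 16.5% and 81.9% unthinned. Cpa1 cells of E13.25 were the deeper ones, with plate medians of 1430860 to 2965490 reads, against 773545 to 1062860 at E15.25. With a gene counted from 30 CPM the shares were 42.5% and 89%, and from 300 CPM 5.13% and 64.4%. In Spp1 cells the share was 54.6% ± 14.3 at E13.25 (SD, n = 4) and 67.2% ± 11.1 at E15.25 (SD, n = 3). In Col3a1 cells it was 62.3% ± 12.7 (SD, n = 4) and 53.8% ± 18.6 (SD, n = 3), and in Neurod1 cells 58.9% ± 8.39 (SD, n = 3) and 87.5% ± 17.7 (SD, n = 2). The spread between plates was widest for Neurod1 and Col3a1 cells of E15.25.

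The distributions were broad within each group. At E13.25 13 of 41 Cpa1 cells held 2 or fewer of the genes and 1 held 8 or more, while at E15.25 6 of 96 held 2 or fewer and 48 held 8 or more. Among Spp1 cells of E13.25, 12 of 84 held 2 or fewer and 18 held 8 or more. Among Col3a1 cells of E13.25, 32 of 161 held 2 or fewer and 29 held 8 or more. All 10 genes stood at 100 CPM or more in 8 Cpa1 cells of E15.25, 6 Spp1 cells of E15.25, 5 Spp1 cells of E13.25 and 5 Col3a1 cells over both ages (4 and 1).

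**Figure D3:**
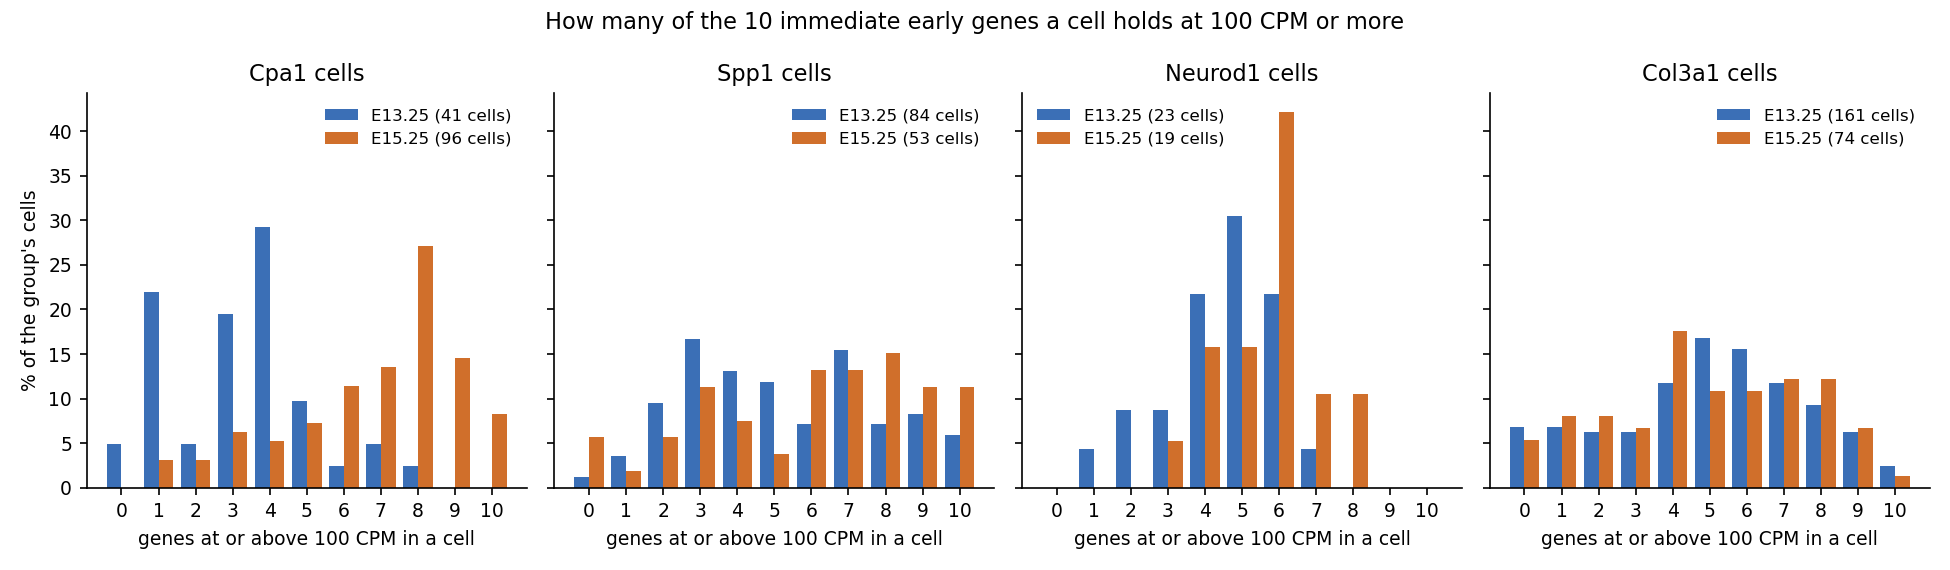
Share of the cells of each group, in percent, by how many of the 10 genes stood at 100 CPM or more, at E13.25 (blue) and E15.25 (orange). In Cpa1 cells 2.44% of cells of E13.25 and 50% of cells of E15.25 lie at 8 or more, and in Col3a1 cells 18% and 20.3%.

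Cells of one plate and group that were high in one of the genes tended to be high in the others. Correlations are Spearman's rho of log2(CPM + 1) over the cells of a plate and group with at least 10 cells, averaged over plates, as a description. Cells of a plate share library preparation and depth varies among them. Over the 45 pairs the median rho was 0.381 in Spp1 cells of E13.25 and 0.557 in those of E15.25, and 0.296 and 0.369 in Col3a1 cells. In Cpa1 cells it was 0.253 at E13.25 (2 plates) and 0.554 at E15.25 (3 plates). The median over all pairs of genes with a read in at least 25% of kept cells lay between 0.00695 and 0.0421 in these groups. Those genes were not matched to the members in level. All 45 pairs were positive in Spp1 and Col3a1 cells of both ages and in Cpa1 cells of E15.25, and 38 of 45 in Cpa1 cells of E13.25. In Neurod1 cells 1 plate, trunk 2 with 12 cells, gave 0.161, with 27 of 45 pairs positive. Thinned to 100000 reads, the Cpa1 median was 0.51 at E15.25 and 0.379 at E13.25.

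Egr1 was the most coupled gene, with a mean rho to the other 9 genes of 0.439 over 20 sets of cells, followed by Ier2 at 0.412, Fos at 0.407 and Nr4a1 at 0.406. Atf3, at 0.318, and Fosl2, at 0.326, were the least coupled. Egr1 and Ier2 had the highest pair value, 0.583, and were positive in 20 of 20 sets. In Cpa1 cells of E15.25 Egr1 reached 0.826 with Ier2 and 0.801 with Btg2, while Dusp1 was loosest, at 0.166 with Fos. In Spp1 cells of E13.25 the highest pair was Nr4a1 with Dusp1, at 0.6. The mean level of the 10 genes per cell had a rho between -0.081 and 0.0976 with the reads per cell on the 7 plates, and between -0.139 and 0.186 with the mitochondrial share. With the number of genes detected it lay between -0.104 and 0.159 on 6 plates and at 0.359 on tip 2.

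**Figure D4:**
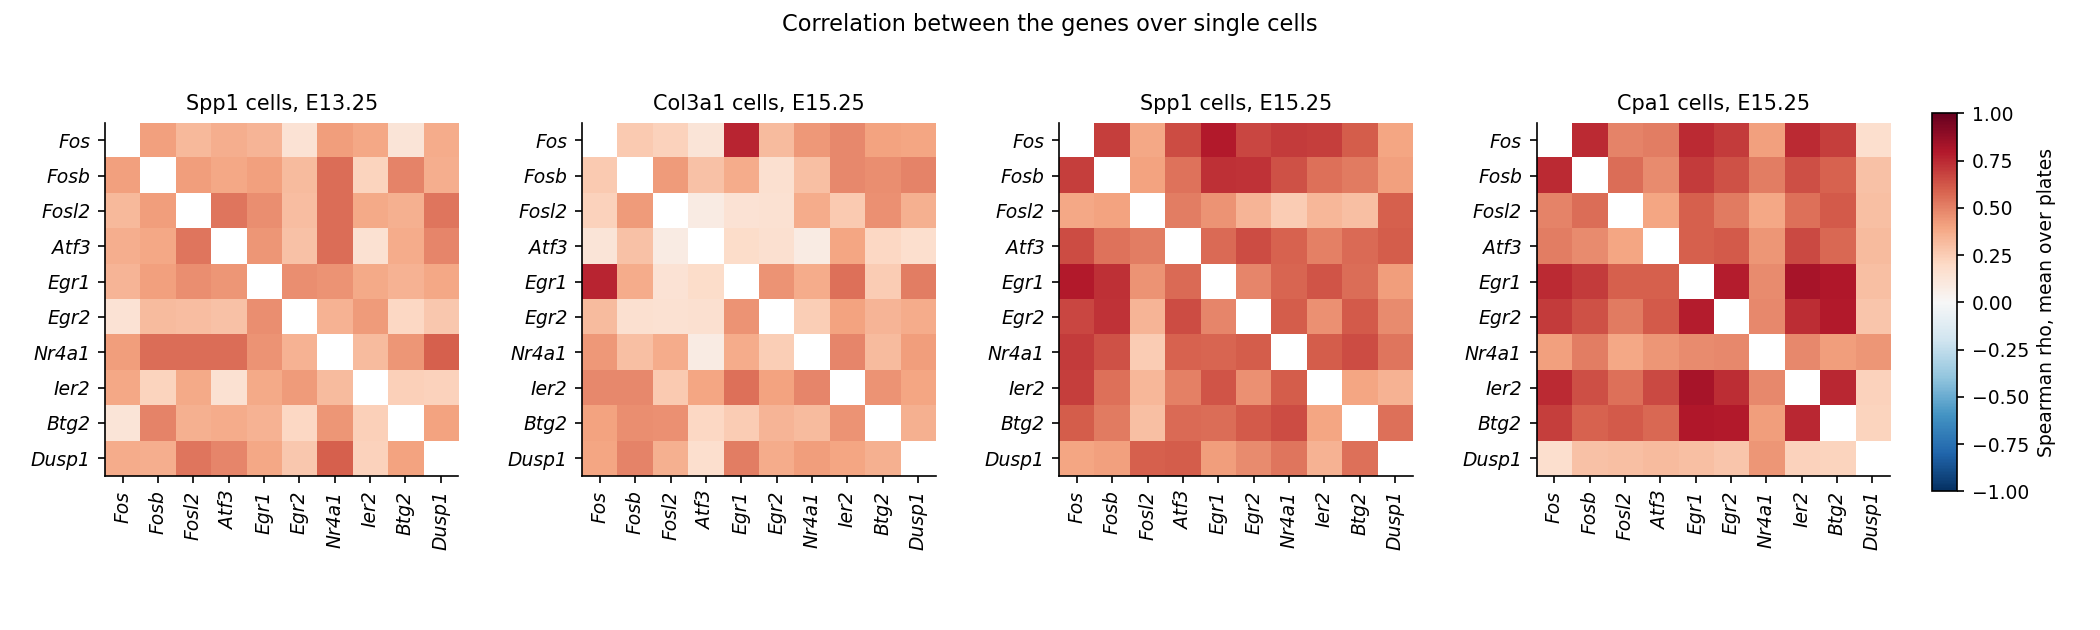
Spearman's rho between the 10 genes over single cells, mean over plates, in Spp1 cells of both ages and in Col3a1 and Cpa1 cells of E15.25 (red above 0, blue below). The Dusp1 row is the palest in Cpa1 cells of E15.25, and the Fos and Egr1 square reaches 0.792 in Spp1 cells of E15.25.

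Other genes that followed the mean of the 10 over 551 grouped cells, centred on the group of each plate, were ranked among 9598 genes with a read in at least 25% of cells of every plate. Jun, the main partner of FOS proteins, came first with a mean rho of 0.659 over the 7 plates, followed by Zfp36 (an mRNA-destabilising protein) at 0.616, Ccn1 (a secreted matricellular protein) at 0.614, Junb at 0.613 and Klf6 at 0.591. Srf, the CArG box factor, was at 0.503. Rhob (0.485), Ppp1r15a (0.475) and Ubald1 (0.465) came next, and the median of all genes was 0.0168. Each of these genes was positive on all 7 plates. Jun measured 316 ± 61.9 CPM (SD, n = 3) in Cpa1 cells of E13.25 and 1589 ± 439 CPM (SD, n = 3) at E15.25, and Zfp36 measured 50.6 ± 40.9 CPM and 447 ± 116 CPM.

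The E15.25 trunk plate was set beside the tip plates, with 1 trunk plate assumed to vary like the others. With all kept cells of a plate summed, trunk 2 was above both tip plates for all 10 genes, as for 45.8% of genes. The same held for all 10 in Spp1 cells (38.4% of genes), for 9 in Cpa1 cells, all but Atf3 (32.7% of genes), and for 3 in Col3a1 cells (32.4% of genes). The median ratio of trunk 2 to the tip mean was 3.10 in Spp1, 1.61 in Cpa1 and 1.15 in Col3a1 cells by sums, which weight cells by their reads. By the mean CPM of cells, which weights them equally, it was 1.58, 1.31 and 1.26, with 9, 6 and 4 genes highest on trunk 2. The share of all genes highest on trunk 2 was computed for the sums of all cells only, not for this mean. The median fitted log2 difference of tip minus trunk went from -0.72 to -0.17 in whole plates, from -1.31 to -0.50 in Spp1 cells and from -0.69 to -0.40 in Cpa1 cells when each cell was given an equal total. Against tip 2 of the same bud the ratio by sums was 2.63, 1.99 and 0.824. No member passed the edgeR test in whole plates (0% of genes called), in Cpa1 cells (0%), in Spp1 cells (0%) or in Col3a1 cells (0%). Unadjusted p was under 0.05 for 2, 0, 3 and 0 members and for 1208, 294, 1286 and 1267 genes. DESeq2 called 1 member, Nr4a1 in whole plates, and 360, 73, 582 and 460 genes. With a single trunk plate the edgeR fit of Cpa1 cells called none of the changes put into simulated data, so 0 calls say little here.

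In Spp1 cells Fos measured 1873 CPM on tip 1, 1402 CPM on tip 2 and 5888 CPM on trunk 2. Dusp1 measured 112, 262 and 1962 CPM in the same order. A single cell carried much of both trunk values. It held 7066395 reads on genes, 21.4% of the reads of the 20 Spp1 cells of trunk 2, and supplied 76.2% of their Fos and 79.8% of their Dusp1 reads. Without the cell with the most reads of the 10 genes on each plate, Fos measured 1702, 1177 and 1782 CPM on tip 1, tip 2 and trunk 2, and Dusp1 108, 149 and 504 CPM. All 10 genes were still highest on trunk 2 by sums, with a median ratio of 2.15, and no share of all genes was computed without these cells.

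The median Spp1 cell, which 1 cell cannot move far, was also highest on trunk 2 for all 10 genes, with a median ratio of 3.25. No share of all genes was computed for the median cell or for the share of cells. Nr4a1 in the median Spp1 cell measured 75.7, 62.2 and 389 CPM on tip 1, tip 2 and trunk 2, and Atf3 98.7, 123 and 502 CPM. The share of Spp1 cells at 100 CPM or more was highest on trunk 2 for 7 genes. In Cpa1 cells the median cell was highest on trunk 2 for 7 genes and in Col3a1 cells for 8, where the sums had shown 3. In Col3a1 cells the ratio of trunk 2 to the tip mean for Dusp1 was 0.657 by sums and 3.33 by the median cell. Leaving out tip 1, the Col3a1 estimates of tip minus trunk were below 0 for 3 of 10, and leaving out tip 2 for 9 of 10, so their side depends on the tip plate.

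**Figure D5:**
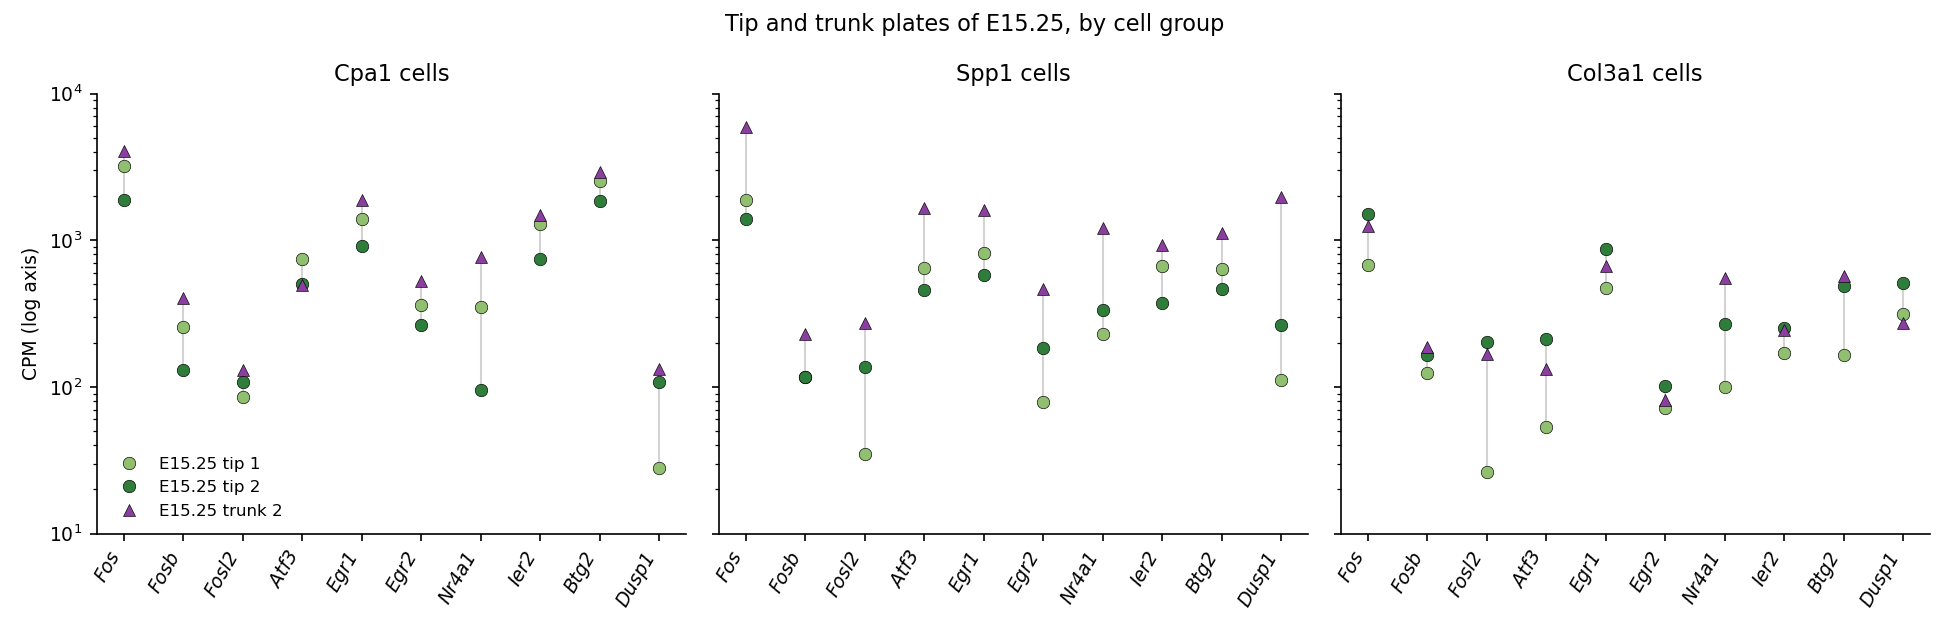
Level of each gene in CPM (log axis) in the Cpa1, Spp1 and Col3a1 cells of the 3 E15.25 plates (circles, tips; triangles, trunk). The trunk triangles lie highest for 10 genes in Spp1, 9 in Cpa1 and 3 in Col3a1 cells.

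Other immediate early genes, 26 in all, were listed for comparison, among them KLF factors, JUN proteins and RNA-binding regulators. For Col3a1 against epithelial cells 12.8% of all genes passed at E13.25 (8.58% passed and were higher) and 9.41% at E15.25. For Cpa1 against Spp1 cells at E13.25, 0.537% of all genes passed and 56.4% were below 0. At E13.25, 4 of 26 were higher in Col3a1 cells than in the epithelium and 0 lower (median log2 fold change 1.49, beside 0.21 over all genes): Klf4 (4.62 ± 1.05, adjusted p = 0.0066), Klf2 (3.67 ± 0.96, adjusted p = 0.017), Zfp36l1 (1.69 ± 0.48, adjusted p = 0.027) and Jund (1.47 ± 0.37, adjusted p = 0.013). Of Cpa1 against Spp1 cells at E13.25, 24 of 26 estimates were below 0 (median -1.90, beside -0.17 over all genes), and Jun (-1.79 ± 0.37, adjusted p = 0.038) and Nr4a3 (-6.67 ± 1.35, adjusted p = 0.033) passed. Nr4a3 was near 0 in Cpa1 cells, at 0.141 ± 0.177 CPM (SD, n = 3), against 8.68 ± 7.6 CPM (SD, n = 4) in Spp1 cells, so its fitted fold depends on the prior count. At E15.25 Jun (-1.64 ± 0.35, adjusted p = 0.0059), Zfp36 (-1.12 ± 0.31, adjusted p = 0.031) and Ccn1 (-2.47 ± 0.73, adjusted p = 0.041) were lower in Col3a1 cells and Klf2 was higher (3.41 ± 0.95, adjusted p = 0.031). Klf2 measured 63.7 ± 12.4 CPM (SD, n = 3) in Col3a1 cells, 48.4 ± 32.6 CPM (SD, n = 3) in Cpa1 cells, which overlapped, and 0.954 ± 1.14 CPM (SD, n = 3) in Spp1 cells, near 0. Over the 26 genes at E15.25, 16 estimates of Col3a1 against epithelial cells were below 0 (median -0.41), as were 51.6% of all genes (median -0.01). Of Cpa1 against Spp1 cells at E15.25, 12 of 26 were below 0 (median 0.54), as were 48.7% of all genes (median 0.04). In Neurod1 cells 1 of the 26 was higher and 4 lower at E13.25, and 2 were higher and 3 lower at E15.25. Of all genes, 11.2% and 7.7% passed there. In tip against trunk, 22 of the 26 estimates were below 0 in whole plates, as were 42.8% of all genes.

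The lists that follow are read beside the shares of all genes called, 12.8% at E13.25 and 9.41% at E15.25 for Col3a1 against epithelial cells, and 0.537% and 1.73% for Cpa1 against Spp1 cells. Of 11 ERK feedback genes 2 were higher in Col3a1 cells at E13.25, and 2 were higher and 1 lower at E15.25. Spry4, an inhibitor of receptor tyrosine kinase signalling, was higher in Col3a1 cells at E13.25 (6.85 ± 1.35, adjusted p = 0.0024) and E15.25 (5.47 ± 1.22, adjusted p = 0.0082), as was Etv1 (3.16 ± 0.89, adjusted p = 0.026, and 4.24 ± 0.98, adjusted p = 0.01), and 0 of 11 were called between Cpa1 and Spp1 cells at either age. Spry4 measured 38.4 ± 28.6 CPM (SD, n = 4) in Col3a1 cells of E13.25 and 0.0404 ± 0.0351 CPM (SD, n = 3) in Cpa1 cells, where it was near 0. Dusp5, an ERK phosphatase, was lower in Col3a1 cells at E15.25 (-2.39 ± 0.58, adjusted p = 0.013). Among 16 upstream factors Srf (1.84 ± 0.45, adjusted p = 0.011), Elk3 (2.64 ± 0.64, adjusted p = 0.01) and Stat3 (2.35 ± 0.43, adjusted p = 0.0015) were higher in Col3a1 cells at E13.25, 3 of 16, and 0 of 16 at E15.25. Of 12 heat shock genes, Hspa1a (6.05 ± 1.53, adjusted p = 0.014) and Dnajb1 (1.32 ± 0.41, adjusted p = 0.044) were higher and Hspd1 (-0.99 ± 0.27, adjusted p = 0.021) lower in Col3a1 cells at E13.25. Hspa1a too was near 0 in Cpa1 cells, at 0.0712 ± 0.065 CPM (SD, n = 3), against 48.4 ± 8.5 CPM (SD, n = 4) in Col3a1 cells. Of the 12, 0 passed between Cpa1 and Spp1 cells at either age. Of 10 integrated stress response genes, Ddit3 (2.34 ± 0.52, adjusted p = 0.0057) was higher and Asns (-2.41 ± 0.74, adjusted p = 0.04) and Nupr1 (-3.69 ± 1.10, adjusted p = 0.035) were lower in Col3a1 cells than in the epithelium at E13.25, and 0 of 10 passed at E15.25. In Neurod1 cells 1 of the 10 was higher and 1 lower at E13.25, and 1 was higher at E15.25, where 11.2% and 7.7% of all genes passed. Asns (6.09 ± 1.07, adjusted p = 0.0083) and Nupr1 (5.96 ± 1.22, adjusted p = 0.019) were higher in Cpa1 than in Spp1 cells at E15.25. Between Col3a1 cells and the epithelial average, plates of Col3a1 cells overlapped those of at least 1 epithelial group for Klf2, Jund, Spry4, Etv1, Stat3, Hspa1a, Asns and Nupr1 at E13.25 and for Jun, Zfp36, Klf2 and Dusp5 at E15.25. The adjusted p in these sentences is edgeR's, over all genes.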

How the data were processed

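The authors deposited raw read counts per gene for each cell, made with GSNAP and HTSeq 0.5.3p3 on mm10, per the submitters' processing notes, with no normalization. Which gene annotation and strand setting were used, and how reads matching several places were counted, is not given in the sources used here. No molecular identifiers were used, so reads are not independent molecules. From these counts CPM over reads on genes was computed. Cells were kept with at least 100000 reads, 1500 genes and at most 20% mitochondrial reads. Wells were sorted with 1 cell, so doublets were not called, and an alternative left out the 5% of cells per plate that had the most genes. Gene positions are from GENCODE M21 on GRCm38, and promoter sequences from RefSeq on GRCm38.p6.

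Counts were summed per plate and cell group and tested with edgeR 4.0.16 on R 4.3.3 (quasi-likelihood F test after TMM scaling and filterByExpr), and p-values had Benjamini-Hochberg adjustment over all genes, with 0.05 as the threshold. The fit had the plate and the cell group within age as terms. Standard errors are the fold change divided by the square root of F. DESeq2 1.42.0 was an alternative. The fits were tested on simulated data, where the tip against trunk fit of Cpa1 cells, with 1 trunk plate, called none of the changed genes and the fit of Cpa1 against Spp1 cells at E15.25 few. Genes named are the 10 members, the 10 genes most like them, of which 1 is not reported here, and the called genes of the other lists, at most 4 a list and largest change first. The members, the lists and the cell groups were chosen with earlier results of these data known. The E15.25 protocol text speaks of E13.25 embryos, and the age labels were used.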

Additional observations from a re-analysis of the deposited data

Results flagged for a closer look

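In 7 of 30 combinations of a gene and a contrast, every plate of one age had the opposite side from every plate of the other, by the log2 ratio of CPM within a plate. The share of all genes with such a reversal was not computed, so this count has no background beside it. The difference between the ages was not tested, since the genes were listed from the age comparison. In Cpa1 against Spp1 cells the ratio was higher at E15.25 than at E13.25 by 4.27 on the log2 scale for Egr2, 2.97 for Fosb, 2.96 for Btg2, 1.88 for Egr1 and 1.44 for Ier2. Egr2 in Cpa1 against Spp1 cells was at -1.39, -4.56 and -3.95 on plates 1, 3 and 4, and at 2.18, 0.52 and 0.20 on tip 1, tip 2 and trunk 2. In Col3a1 against epithelial cells the ratio at E15.25 minus that at E13.25 was -1.98 for Fos and -2.61 for Egr2. Fos in this contrast was at 1.11, 0.21 and 0.69 on plates 1, 3 and 4, and at -1.86, -0.10 and -1.98 at E15.25, so tip 2 lay near 0.

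One plate stood far from the other 3 in 2 of 30 groups of 4 E13.25 plates, where chance flags about 1 in 20. Both were in Col3a1 cells. Atf3 measured 101 CPM on plate 2, against 38.9, 46.9 and 40.3 CPM on plates 1, 3 and 4. Egr1 measured 562 CPM on plate 3, against 1062, 976 and 1012 CPM on plates 1, 2 and 4.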

How the results depend on the processing

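The counts of called members were 3 and 3 for Col3a1 against epithelial cells (E13.25 and E15.25), 1 and 1 for Cpa1 against Spp1, 3 and 1 for Neurod1 against epithelial, and 0 in the 4 tip against trunk fits. With DESeq2 they were 6 and 3 for Cpa1 against Spp1, 5 and 2 for Neurod1, and 1 for tip against trunk in whole plates. Over all genes, edgeR and DESeq2 called 2742 and 5066 (Col3a1, E13.25), 2016 and 4615 (E15.25), 115 and 1879 (Cpa1 against Spp1, E13.25), 370 and 2373 (E15.25), 2404 and 5547 (Neurod1, E13.25), and 1650 and 5035 (E15.25). For Cpa1 against Spp1 at E13.25 the calls were 58 higher and 57 lower with edgeR and 424 and 1455 with DESeq2. For Col3a1 at E15.25 they were 1399 and 617, 2542 and 2073 with DESeq2, and 1587 and 476 without TMM factors, where the median of all genes moved from -0.01 to 0.14. For Neurod1 at E15.25 they were 746 and 904, and 942 and 711 without TMM factors, where that median moved from -0.46 to -0.18. Without the replicate block, that is without the plate as a term, Cpa1 against Spp1 at E13.25 gave 0. That count was also 0 with thresholds at 0.5 times, with only the plates of this age, and without Spp1 cells that hold Neurog3 (chosen after seeing the data), and 2 with no filter on low counts, with cells given equal totals, and with only cells over 1 threshold. At E15.25 it was 0 without TMM factors and 0 when the 5% of cells richest in genes were left out. Neurod1 at E13.25 gave 1 with only the plates of this age. Neurod1 at E15.25 gave 2 with only the plates of this age and 0 with only cells over 1 threshold. Leaving out 1 plate gave 2 to 3 and 1 to 4 for Col3a1, 0 to 2 and 0 to 1 for Cpa1 against Spp1, and 1 to 3 and 0 to 2 for Neurod1. The comparisons of cell groups are paired by plate. For tip against trunk no paired analysis was possible because they share bud 2 alone, and the numbers of the 2 ages name different embryos. Of 249 settings of single called members 200 kept the call, 49 lost it and 0 reversed. Fosb at E13.25 and Ier2 at E15.25, both in Col3a1 against epithelial cells, kept it in all 21. Other edgeR settings that moved the genes called by over 1.5 times were cells over 1 threshold (255 for Cpa1 against Spp1 at E13.25 and 334 for Neurod1 at E15.25), at least 10 cells per sum (56 and 586 for Cpa1 against Spp1, 488 for Neurod1 at E15.25), only the plates of this age (24 for Cpa1 against Spp1 at E13.25) and no replicate block (2559 for Neurod1 at E15.25). Without tip 1, tip 2 or trunk 2 the E15.25 counts fell to 950, 1098 and 997 for Col3a1, 45, 114 and 87 for Cpa1 against Spp1, and 1343, 264 and 830 for Neurod1. At E13.25, without plates 1, 3 or 4, the count for Cpa1 against Spp1 fell to 28, 34 and 56 and for Neurod1 to 1556, 1470 and 1549, and without plates 1 or 3 that for Col3a1 fell to 1663 and 1814. Without tip 1, 200 genes were called between tip and trunk in Spp1 cells. Leaving out cells over 1% haemoglobin (chosen after seeing the data) took Col3a1 at E15.25 from 3 to 2, without Fos. Neurod1 at E13.25 had no plate with 10 cells, so that alternative was not run there. Sums weight cells by depth, and 1 cell can carry a value.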
